A study of Mus musculus with 15 samples.

Results

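Chemokines are small secreted proteins that direct the movement of leukocytes, and their receptors are G protein-coupled receptors on the cells that respond. The genes described here are the 57 genes, of 17527 in the deposited table, whose symbols name a chemokine (Ccl, Cxcl, Cx3cl1 or Xcl1), a signalling receptor (Ccr, Cxcr, Cx3cr1 or Xcr1) or an atypical receptor (Ackr or Ccrl2). They were 35 ligands, 18 signalling receptors and 4 atypical receptors. A mean of 1 FPKM (fragment counts scaled by transcript length and library depth) over the 15 libraries was reached by 16 of the 57, another 22 had a mean between 0.1 and 1 FPKM, and 19 had a mean under 0.1 FPKM. Membership goes by the symbol alone. The platelet chemokines Pf4 and Ppbp fall outside the symbol pattern and are counted only among the related genes.

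The series holds liver RNA-seq of 15 mice in 3 groups of 5. BBBPH mice carried the diet model of nonalcoholic steatohepatitis and were given biotransformed bear bile powder by mouth at 150 mg/kg each day, starting after week 12. Model mice carried the same diet model and were given saline in place of the powder. What the control mice ate is not stated. For 20 weeks both diet groups ate food with 0.2% cholesterol in which fat gave 60%, carbohydrate 20% and protein 20% of the calories. Sugar was added to the drinking water at 42 g/L, with fructose as 45% and sucrose as 55% of it. The dosed group had 14 mice, of which 5 were sequenced, and the labels give no strain, sex or age. What the replicate numbers stand for is not stated, and they serve here as names and, in alternative fits, as blocks. Values of single livers are given in the order 2_1, 2_2, 3_1, 3_2 and 3_4 for BBBPH, 1_1, 1_4, 2_1, 2_3 and 3_4 for model and 1_1, 1_5, 2_1, 2_2 and 3_4 for control livers. The comparison of model with control livers takes the food, the sugared water and the saline dosing together, and the labels give no dosing for control mice. That of BBBPH with model livers asks what the powder did on top of the diet.

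Many chemokines are barely transcribed in resting tissue and are switched on within hours by NF-kB and by interferon-driven IRF factors, while others are made constantly to hold cells in place. In fatty liver disease the ligands of CCR2 are known for drawing blood monocytes into the liver, the ligands of CXCR2 for drawing neutrophils, and the ligands of CXCR3 for drawing T cells. Atypical receptors bind chemokines without the usual G protein signal and can clear or present them.

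Library depth, read back from the FPKM values, was 35395712 to 39624160 fragments, and 1 fragment in a gene of 1 kilobase was worth 0.0252 to 0.0283 FPKM. The hepatocyte gene Alb stood at 40250 ± 3093 FPKM in BBBPH, 32629 ± 7861 FPKM in model and 46492 ± 3176 FPKM in control livers (SD, n = 5 each). A few libraries stood apart in genes of other tissues. Pancreatic acinar genes summed to at most 3161 FPKM in BBBPH livers (replicate 2_2), against at most 2.47 in model and 3.10 in control livers, and skeletal muscle genes to at most 357 FPKM in control livers (replicate 2_1), against at most 1.58 in BBBPH and 1.77 in model livers. The acute-phase gene Saa1 stood at 9049 FPKM in model 1_4 and at 304 FPKM or less in the other 14 libraries. Counts were therefore also made without model 1_4 and BBBPH 2_2. In bulk liver RNA, fewer cells of a type and less RNA per cell cannot be told apart. Nothing in the labels says how cages or days were shared, so p-values measure the spread between these livers.

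**Figure D1:**
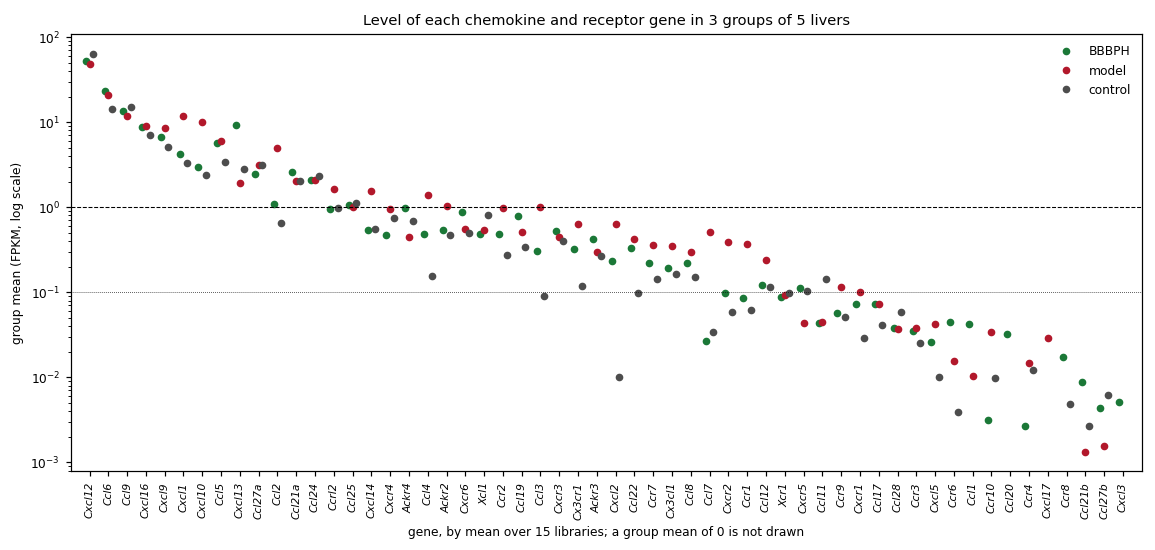
Mean FPKM of each of 56 of the genes (log axis) in BBBPH, model and control livers (5 each), ordered by the mean over all 15 libraries; the dashed line marks 1 FPKM and the dotted line 0.1 FPKM. Cxcl12 leads in all 3 groups, at 52.5, 48.4 and 62.8 FPKM in BBBPH, model and control livers, and the wide gaps between groups sit at middling levels (Ccl2, Cxcl1, Cxcl10, Cxcl13) and low levels (Ccl7, Cxcl2).

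Cxcl12 was the most abundant chemokine transcript in all 15 livers and made up 33.9% to 45.3% of the summed FPKM of the 35 ligands in BBBPH livers, 26.3% to 37.0% in model livers and 46.3% to 52.8% in control livers. The myeloid-cell ligands Ccl6 and Ccl9 came next by mean, at 19.3 and 13.5 FPKM, followed by Cxcl16, Cxcl9, Cxcl1, Cxcl10 and Ccl5 at 5.02 to 8.23 FPKM. Cxcl13, Ccl27a, Ccl2, Ccl21a, Ccl24, Ccrl2 and Ccl25 filled the range from 1.07 to 4.64 FPKM. Ccrl2 was the only atypical receptor to average 1 FPKM or more. The 19 genes under 0.1 FPKM were the receptors Xcr1, Cxcr5, Ccr9, Cxcr1, Ccr3, Ccr6, Ccr10, Ccr4 and Ccr8 and the ligands Ccl11, Ccl17, Ccl28, Cxcl5, Ccl1, Ccl20, Cxcl17, Ccl21b, Ccl27b and Cxcl3, with means of 0.0923 FPKM (Xcr1) down to 0.00173 FPKM (Cxcl3), too low here for a test.

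In model livers, compared with control livers, 8 of the 16 genes that reach 1 FPKM rose and 1 fell. Those that rose were the monocyte attractant Ccl2, the neutrophil attractant Cxcl1, the CXCR3 ligands Cxcl9 and Cxcl10, the myeloid and T-cell attractants Ccl5 and Ccl6, the transmembrane ligand Cxcl16 and the atypical receptor Ccrl2, and the one that fell was Cxcl12. Tests were made with limma on log2(FPKM + 1) over all 9575 genes averaging 1 FPKM or more, and a gene was called at a Benjamini-Hochberg adjusted p under 0.05. Over all genes tested 29.9% were higher and 8.64% lower in the model, and the median log2 fold change was 0.29 over the 16 genes and 0.12 over all. The groups did not overlap for 4 genes higher in the model (Ccl2, Ccl5, Cxcl9 and Cxcl10) and for 1 lower (Cxcl12), against 18.8% and 5.07% of all genes. With both model 1_4 and BBBPH 2_2 left out, 5 calls were made in place of 9, and 5 were made with median-ratio scaling, which moved the median of all genes to -0.01 and the split of all calls to 1483 higher and 1809 lower, in place of 2865 and 827.

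In BBBPH livers, compared with model livers, Ccl2, Cxcl1, Cxcl10 and Ccrl2 fell and the B-cell attractant Cxcl13 rose. Over all genes tested 14.2% were higher and 12.2% lower in BBBPH livers, and the median log2 fold change was 0.003 over the 16 genes and 0.019 over all. The groups did not overlap for Ccl2, Cxcl1 and Cxcl10, all lower, and for no gene of the 16 that was higher, where 7.9% and 9.11% of all genes lay apart in these directions. In BBBPH livers against control livers, Ccl6 and Cxcl13 were higher and Cxcl12 lower, and Cxcl12 was lower without overlap (2.22% of all genes). Of all genes 28.1% were called there, 24.4% higher and 3.7% lower, with a median of 0.27 over the 16 genes and 0.13 over all. Without model 1_4 and BBBPH 2_2 the counts were 4 and 3 calls in these comparisons. Each group enters 2 of the 3 comparisons, so the differences are not independent of each other.

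**Figure D2:**
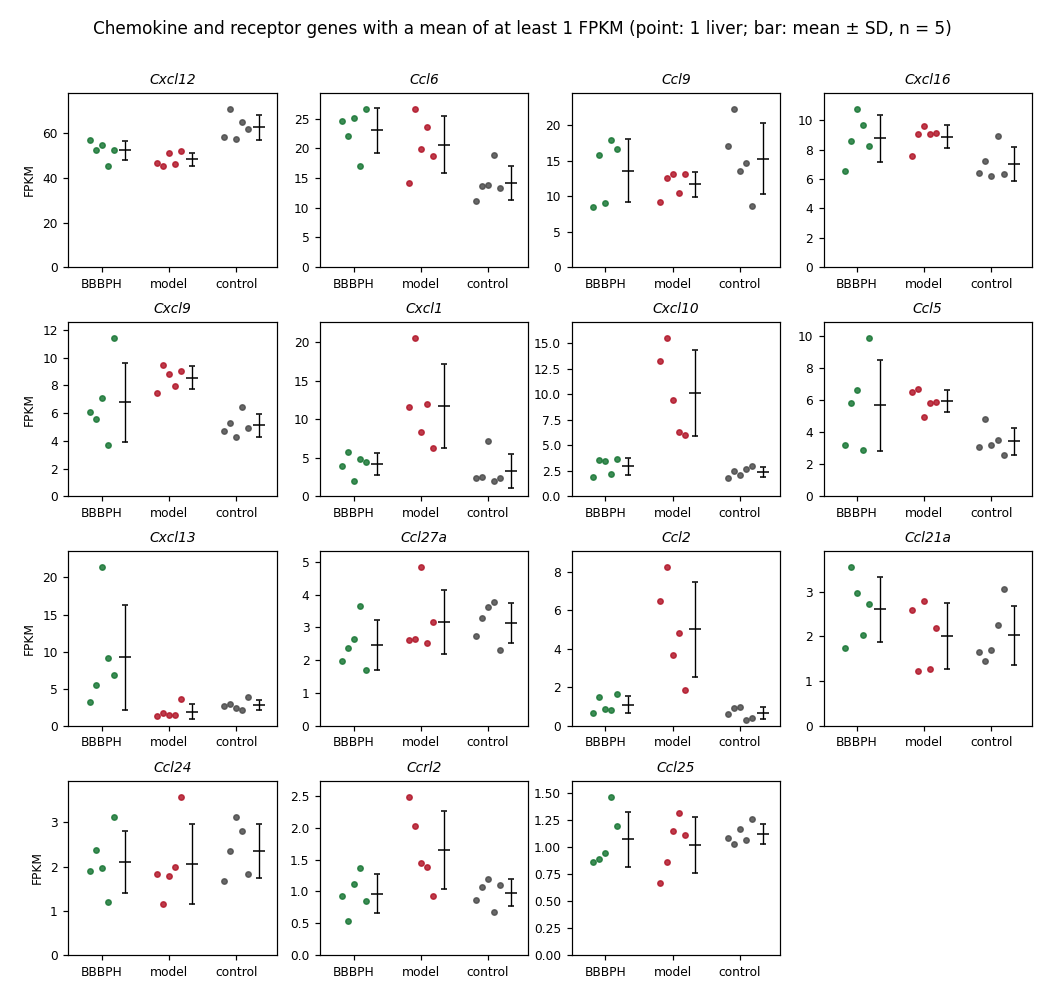
FPKM in each liver for 15 of the 16 genes averaging 1 FPKM or more, with BBBPH, model and control livers from left to right; points are single livers and bars the mean ± SD (n = 5). Ccl2, Cxcl1 and Cxcl10 in model livers lie above every BBBPH liver (Ccl2 at 1.88 to 8.24 FPKM against 0.649 to 1.63 FPKM), while Cxcl13 is high in BBBPH livers, led by 21.4 FPKM in replicate 3_1.

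The 22 genes with a mean of 0.1 to 1 FPKM were read from a second limma fit over the 12705 genes averaging 0.1 FPKM or more. In model against control livers 12 of the 22 rose (Ccl3, Ccl4, Ccl7, Ccl22, Cxcl2, Cxcl14, Cx3cl1, Ccr1, Ccr2, Ccr7, Cx3cr1 and Ackr2) and 0 fell by limma's adjusted p (Ackr4 was lower at an unadjusted p under 0.05), where 26.7% of the 12705 genes were higher and 7.21% lower. In BBBPH against model livers 7 fell (Ccl3, Ccl4, Ccl7, Cxcl14, Ccr2, Cxcr4 and Ackr2) and 2 rose (Ackr4 and Cxcr6), where 10.8% were lower and 11.9% higher. In BBBPH against control livers Ccl22 and Cxcr6 were higher, where 20.3% were higher. Many of these genes rest on few fragments in a library, and the added 1 FPKM shrinks their fold changes. With a pseudocount of 0.1 FPKM the 23 called differences were 1.89 to 4.08 times as large, and 22 of them were still called. Median-ratio scaling and the replicate blocks were not tried on these 22 genes.

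The CCR2 ligands were Ccl2, Ccl7 and Ccl12, which lie close together on chromosome 11 (Ccl2 at chromosome 11, 82035571 to 82037453 and Ccl7 at chromosome 11, 82045712 to 82047525, GRCm38). Ccl2, or MCP-1, is the chief attractant of CCR2-bearing monocytes. It had 0.649, 1.51, 0.849, 0.818 and 1.63 FPKM in BBBPH livers, 6.49, 8.24, 3.68, 4.83 and 1.88 FPKM in model livers and 0.618, 0.947, 0.994, 0.301 and 0.386 FPKM in control livers. The 5 model livers were all above the other 10, with model 3_4 the nearest to them. Ccl2 was 7.74 times as high in model as in control livers by the ratio of means (log2 fold change 1.78 ± 0.25 SE, adjusted p = 9.81e-05, limma), and in BBBPH livers it stood at 0.217 times the model mean (log2 fold change -1.44 ± 0.25 SE, adjusted p = 0.000703). With a pseudocount of 0.1 FPKM the first difference was 2.72 and the second -2.02. With the replicate number as a block the first was still called and the second was not. Only 10 of the 15 libraries share their number with a library of another group. That block therefore sets fewer livers against each other, and a lost call there does not tell fewer livers from a smaller difference. Between BBBPH and control livers Ccl2 differed by 0.34 (95% interval -0.19 to 0.87, adjusted p = 0.324).

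Ccl7, or MCP-3, another CCR2 ligand, was counted in 0, 1, 1, 2 and 0 fragments in BBBPH livers, 27, 16, 12, 10 and 12 in model livers and 0, 3, 1, 1 and 0 in control livers. Every model liver held at least 10 fragments and no other liver more than 3. The difference was called in model against control livers (limma adjusted p = 8.64e-05) and in BBBPH against model livers (adjusted p = 0.000106), and no fold is given because both other groups lie at or under 3 fragments. Ccl12, or MCP-5, with 0 to 0.306 FPKM in BBBPH, 0.101 to 0.607 FPKM in model and 0 to 0.258 FPKM in control livers, was not called in any comparison.

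Monocyte markers were read beside this group. Of 8 monocyte and recruited-macrophage markers 5 were tested and 3 rose in model livers, with S100a4 at 1.71 ± 0.639 FPKM in BBBPH, 4.45 ± 2.04 FPKM in model and 1.1 ± 0.427 FPKM in control livers. In BBBPH against model livers 1 of the 5 fell and 0 rose. Over all genes tested, 29.9% were higher and 8.64% lower in model livers. In BBBPH against model livers 14.2% of all genes were higher and 12.2% lower. The 8 markers summed to 352 to 454 FPKM in BBBPH, 304 to 513 FPKM in model and 322 to 359.8 FPKM in control livers, and none was at 0 in all libraries. Of 8 markers of lipid-associated macrophages, 4 of 7 tested rose and 1 fell in model livers and 4 fell in BBBPH against model livers, among them Mmp12 at 0.652 ± 0.309 FPKM in BBBPH, 4.2 ± 2.32 FPKM in model and 0.0845 ± 0.0468 FPKM in control livers and Trem2 at 0.895 ± 0.453 FPKM in BBBPH, 2.14 ± 0.687 FPKM in model and 0.69 ± 0.308 FPKM in control livers. These 8 summed to 56.3 to 85.2 FPKM in BBBPH, 51.4 to 342 FPKM in model and 72 to 167 FPKM in control livers. Fabp5, also on this list, had its highest mean in control livers. It stood at 16.6 ± 8.06 FPKM in BBBPH, 13.4 ± 13.3 FPKM in model and 73.3 ± 43.2 FPKM in control livers. In BBBPH against control livers Fabp5 was lower (log2 fold change -1.95, limma adjusted p = 0.00863). The part of these markers in the change of Ccl2 was not tested.

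CXCR2 draws neutrophils, and its ligands that match the symbol pattern were Cxcl1, Cxcl2, Cxcl3 and Cxcl5. Cxcl1, or KC, had 3.91, 5.8, 1.98, 4.8 and 4.49 FPKM in BBBPH livers, 11.7, 20.6, 8.31, 12 and 6.32 FPKM in model livers and 2.41, 2.48, 7.23, 2.03 and 2.34 FPKM in control livers. Each BBBPH liver was below each model liver, while control 2_1 at 7.23 FPKM stood above model 3_4 and the other 4 control livers at 2.03 to 2.48 FPKM. Cxcl1 rose in model livers (log2 fold change 1.59 ± 0.31 SE, adjusted p = 0.00107, limma) and fell in BBBPH against model livers (log2 fold change -1.25 ± 0.31 SE, adjusted p = 0.00746), and it did not pass in BBBPH against control livers (0.34, 95% interval -0.32 to 0.99, adjusted p = 0.425). Control 2_1 is also the library that holds skeletal muscle transcripts, and without it the difference of model from control was 1.85 (adjusted p = 0.000207). With the replicate number as a block, neither the rise nor the fall of Cxcl1 was called.

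Cxcl2, or MIP-2, a close relative of Cxcl1 in the same gene cluster, was counted in 0, 13, 2, 18 and 15 fragments in BBBPH livers, 41, 39, 17, 27 and 5 in model livers and 0, 1, 1, 0 and 0 in control livers. All control livers were at 0 or 1 fragment. The gene was called in model against control livers (limma adjusted p = 0.00204), again with no fold given against so few fragments. In BBBPH against model livers it did not pass (log2 fold change -0.40, adjusted p = 0.051) except without BBBPH 3_2 or model 3_4 (adjusted p = 0.00488 to 0.041). Cxcl3 and Cxcl5 had means of 0.00173 and 0.026 FPKM. The receptor Cxcr2 stood at 0.0503, 0.225, 0.0702, 0.0929 and 0.0566 FPKM in BBBPH livers, 0.193, 1.24, 0.122, 0.316 and 0.0706 FPKM in model livers and 0.0444, 0, 0.168, 0.0173 and 0.0634 FPKM in control livers. Its 1.24 FPKM in model 1_4 was the highest by far, and the difference of model from control did not pass (log2 fold change 0.34, limma adjusted p = 0.0929) except without model 3_4 or under a pseudocount of 0.1 or a fit on counts (adjusted p = 0.0394 to 0.0468). Neutrophil markers ran from 6.93 to 144 FPKM in BBBPH, 13.2 to 81.1 FPKM in model and 2.6 to 38.8 FPKM in control livers in sum. Of 5 tested, 2 rose in model livers, where 29.9% of all genes were higher. They were S100a8 (log2 fold change 2.03, limma adjusted p = 0.0481) and Csf3r (0.39, adjusted p = 0.0295). The part of neutrophil markers was not tested.

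CXCR3 guides activated T cells and natural killer cells, and its ligands Cxcl9 (MIG) and Cxcl10 (IP-10), both induced by interferon, sit next to each other on chromosome 5 (Cxcl9 at chromosome 5, 92321347 to 92328079, Cxcl10 at chromosome 5, 92346638 to 92348889). Cxcl10 had 1.95, 3.54, 3.46, 2.2 and 3.67 FPKM in BBBPH livers, 13.3, 15.5, 9.45, 6.27 and 6.03 FPKM in model livers and 1.84, 2.45, 2.06, 2.69 and 3 FPKM in control livers. Every model liver exceeded every liver of the other groups. The gene rose in model livers, 4.2 times the control mean (log2 fold change 1.63 ± 0.22 SE, adjusted p = 6.75e-05, limma), and fell in BBBPH livers to 0.293 times the model mean (log2 fold change -1.43 ± 0.22 SE, adjusted p = 0.000267). BBBPH and control livers differed by 0.20 (95% interval -0.26 to 0.67, adjusted p = 0.506). With the replicate number as a block, the rise of Cxcl10 was still called and its fall was not. Exons of Art3 on the other strand cover 5.91% of the exonic bases of Cxcl10 in GENCODE M21, and the strand setting of the counting is not stated. Art3 had 0.667 to 1.23 FPKM in BBBPH, 0.789 to 1.2 FPKM in model and 0.804 to 1.37 FPKM in control livers, and its part in the Cxcl10 values was not tested.

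Cxcl9 had 6.1, 5.58, 7.08, 3.74 and 11.4 FPKM in BBBPH livers, 7.48, 9.47, 8.8, 7.97 and 9.05 FPKM in model livers and 4.71, 5.29, 4.26, 6.43 and 4.91 FPKM in control livers. It too rose in model livers, where all 5 lay above all control livers (log2 fold change 0.65 ± 0.18 SE, adjusted p = 0.0113, limma). In BBBPH livers Cxcl9 ran from below the control range to above the model range. Against model livers it did not pass (-0.36, 95% interval -0.75 to 0.02, adjusted p = 0.157), except without BBBPH 3_4, whose 11.4 FPKM is the highest value of all (-0.55, adjusted p = 0.00884). The receptor Cxcr3, at 0.524 ± 0.255 FPKM in BBBPH, 0.446 ± 0.102 FPKM in model and 0.397 ± 0.0452 FPKM in control livers (SD, n = 5 each), was not called in any comparison. T and NK cell markers, 14 in the table and 1 tested, gave 0 calls in each comparison and summed to 5.45 to 11.1 FPKM in BBBPH, 5.11 to 11.2 FPKM in model and 4.42 to 7 FPKM in control livers.

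The promoters of 3 of these genes are shown because these genes carry the largest called changes among the 16 for which a promoter window was found: Cxcl10 and Cxcl1, up in the model and down in BBBPH livers, and Cxcl13, up in BBBPH livers. Each is the 250 bases before the start site in RefSeq on GRCm38.p6, read 5′ to 3′ on the gene's own strand. Capitals mark matches to the kB consensus, the binding motif of NF-kB, to GAAANNGAAA, the core of the interferon-stimulated response element, or to TATAAA, searched on both strands. Overlapping matches are drawn as 1 run.
Cxcl10, chr5:92348890-92349139, minus strand: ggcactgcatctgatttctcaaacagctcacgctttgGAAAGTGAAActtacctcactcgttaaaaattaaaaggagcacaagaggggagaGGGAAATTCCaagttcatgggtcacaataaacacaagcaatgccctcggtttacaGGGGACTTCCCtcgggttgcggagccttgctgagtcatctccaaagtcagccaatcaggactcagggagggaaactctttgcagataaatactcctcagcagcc
Cxcl1, chr5:90890995-90891244, plus strand: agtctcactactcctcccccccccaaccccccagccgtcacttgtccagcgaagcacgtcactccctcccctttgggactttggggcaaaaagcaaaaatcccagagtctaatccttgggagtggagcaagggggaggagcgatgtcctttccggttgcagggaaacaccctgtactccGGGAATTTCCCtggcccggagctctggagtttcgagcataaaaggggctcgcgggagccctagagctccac
Cxcl13, chr5:95956689-95956938, plus strand: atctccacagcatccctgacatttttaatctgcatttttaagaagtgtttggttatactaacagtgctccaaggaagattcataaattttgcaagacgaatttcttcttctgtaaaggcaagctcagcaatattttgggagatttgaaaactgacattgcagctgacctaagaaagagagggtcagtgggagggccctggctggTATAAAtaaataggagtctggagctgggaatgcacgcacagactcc
Cxcl10 holds GAAAGTGAAA at -213 to -204 from the start site and kB matches at -159 to -150 and -104 to -94, where matches on both strands overlap. Cxcl1 holds a kB match at -71 to -61, and Cxcl2 has the same 11 bases at -97 to -87. Cxcl13 holds TATAAA at -46 to -41 and no match to the other motifs in this window. Windows of 300 bases were found for 44 of the 57 genes, 53 windows in all. A kB match was in 13 of the 53 (24.5%) and in 8.46% of all 32851 windows. GAAANNGAAA was in 3 of 53 (Ccl19, Cxcl10 and Cxcl14, 5.66%) and in 3.44% of all, and TATAAA in 13 of 53 (24.5%) and in 13.6%. The kB matches were in Ackr2, Ccl1, Ccl20, Ccl27a, Ccl9, Ccr1, Ccr3, Ccr6, Ccrl2, Cxcl1, Cxcl10, Cxcl2 and Cxcl3. Of these Ccl1, Ccl20, Ccr3, Ccr6 and Cxcl3 averaged under 0.1 FPKM, and Ccl9 and Ccl27a were not called. Cxcl9, called higher in model livers, has neither a kB nor a GAAANNGAAA match. A match describes the letters of the window and says nothing of whether a factor sits there.

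The attractants of monocytes, macrophages and T cells, with CCR1 among their receptors, were Ccl3, Ccl4, Ccl5, Ccl6 and Ccl9, all on chromosome 11. Ccl5, or RANTES, had 3.19, 5.79, 6.64, 2.87 and 9.87 FPKM in BBBPH livers, 6.49, 6.68, 4.95, 5.82 and 5.85 FPKM in model livers and 3.07, 4.81, 3.22, 3.5 and 2.6 FPKM in control livers. Model livers lay above all control livers, and BBBPH livers spread over both ranges. Ccl5 rose in model livers (log2 fold change 0.66 ± 0.22 SE, adjusted p = 0.0296, limma), a call that ended without model 1_1, 1_4 or 2_3 or control 1_1, 2_1 or 3_4 (adjusted p = 0.0506 to 0.0678), and with no filter, with median-ratio scaling and without model 1_4 and BBBPH 2_2 (0.0582 to 0.0773). In BBBPH against model livers Ccl5 differed by -0.16 (95% interval -0.64 to 0.32, adjusted p = 0.637). In BBBPH against control livers it did not pass (log2 fold change 0.50, adjusted p = 0.106) except without BBBPH 2_1 or 3_2 (adjusted p = 0.0356 to 0.0398).

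Ccl6, a mouse ligand made by myeloid cells, had 24.7, 22, 25.1, 17 and 26.7 FPKM in BBBPH livers, 14.1, 26.7, 19.9, 23.6 and 18.7 FPKM in model livers and 11.1, 13.6, 13.9, 18.9 and 13.3 FPKM in control livers. BBBPH livers were the highest as a group, with 4 of 5 above every control liver. Ccl6 rose in BBBPH against control livers (log2 fold change 0.67 ± 0.16 SE, adjusted p = 0.0077, limma) and in model against control livers (log2 fold change 0.50 ± 0.16 SE, adjusted p = 0.0233). The second call ended without model 1_4 or 2_3 or control 1_1 (adjusted p = 0.0594 to 0.062) and with median-ratio scaling or without model 1_4 and BBBPH 2_2 (0.0703 to 0.103). BBBPH and model livers differed by 0.17 (95% interval -0.17 to 0.51, adjusted p = 0.466). Ccl9, its neighbour and close relative, had 8.49 to 17.9 FPKM in BBBPH, 9.18 to 13.1 FPKM in model and 8.69 to 22.4 FPKM in control livers and was not called in any comparison.

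Ccl3 (MIP-1 alpha) and Ccl4 (MIP-1 beta) are inducible attractants of macrophages and T cells, and Ccl3 binds CCR1. Ccl4 had 0.396, 0.614, 0.166, 0.28 and 0.956 FPKM in BBBPH livers, 1.66, 2.26, 1.4, 0.664 and 1 FPKM in model livers and 0.0839, 0.124, 0.0837, 0.449 and 0.0428 FPKM in control livers. All model livers were above all control livers and 4 of 5 BBBPH livers were below all model livers. Ccl4 rose in model livers (log2 fold change 1.02 ± 0.17 SE, adjusted p = 0.000418, limma) and fell in BBBPH against model livers (log2 fold change -0.68 ± 0.17 SE, adjusted p = 0.00925), and with a pseudocount of 0.1 FPKM these differences were 2.62 and -1.42. Ccl3 stood at 0.232, 0.342, 0.104, 0.4 and 0.447 FPKM in BBBPH livers, 0.926, 1.51, 1.2, 1.42 and 0.0349 FPKM in model livers and 0.105, 0, 0.07, 0.239 and 0.0358 FPKM in control livers. Model 3_4 was at the level of control livers, unlike the other 4 model livers. Ccl3 rose in model livers (log2 fold change 0.83 ± 0.18 SE, adjusted p = 0.00315) and fell in BBBPH against model livers (log2 fold change -0.57 ± 0.18 SE, adjusted p = 0.0353), but the fall ended without BBBPH 2_1, 2_2, 3_1 or 3_2 or model 1_1, 1_4, 2_1 or 2_3 (adjusted p = 0.0506 to 0.087). It ended too with no filter, with a pseudocount of 0.1, on counts, and without model 1_4 and BBBPH 2_2 (0.0594 to 0.349).

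Cxcl12, or SDF-1, is made by stromal and endothelial cells and holds CXCR4-bearing cells in place. It lies at chromosome 6, 117168535 to 117181367. Cxcl12 had 56.9, 52.4, 55, 45.4 and 52.7 FPKM in BBBPH livers, 46.8, 45.6, 51, 46.2 and 52.2 FPKM in model livers and 58.3, 71.2, 57.3, 65 and 62 FPKM in control livers. Control livers were all above model livers and all above BBBPH livers. It fell in model livers (log2 fold change -0.37 ± 0.08 SE, adjusted p = 0.00165, limma) and was lower in BBBPH than in control livers (log2 fold change -0.25 ± 0.08 SE, adjusted p = 0.0222), where the call ended without BBBPH 3_2 or control 1_5 (adjusted p = 0.0552 to 0.0628) and the difference was -0.43 with median-ratio scaling. BBBPH and model livers differed by 0.11 (95% interval -0.05 to 0.27, adjusted p = 0.29). Sinusoidal endothelial markers, 10 of 10 tested, had 3 higher and 1 lower in model livers and summed to 220.4 to 232 FPKM in BBBPH, 162 to 232 FPKM in model and 189 to 220.5 FPKM in control livers. Stellate cell and fibroblast markers, 11 of 11 tested, had 9 higher and 0 lower in the model, 5 lower in BBBPH against model livers, and summed to 157 to 170.1 FPKM in BBBPH, 175 to 217 FPKM in model and 133 to 156 FPKM in control livers. Over all genes tested, 29.9% were higher and 8.64% lower in model livers, and the endothelial counts lie near these shares. In BBBPH against model livers 12.2% of all genes were lower. The part of these markers in the change of Cxcl12 was not tested.

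In model livers Cxcl12 fell while Ccl2 rose. The ratio of Ccl2 to Cxcl12 in FPKM was 0.0114 to 0.0309 in BBBPH livers, 0.0360 to 0.181 in model livers and 0.00463 to 0.0173 in control livers. The 5 model livers had the 5 highest ratios, and BBBPH and control livers overlapped. The ratio is built from the Ccl2 and Cxcl12 values given above and adds no separate evidence. Model 1_4, the library with high Saa1, was the highest of all for Ccl2, Cxcl1 and Cxcl10. With model 1_4 and BBBPH 2_2 left out, the differences of model from control livers were 1.60, 1.37 and 1.47 for these genes, and those of BBBPH from model livers -1.33, -1.15 and -1.32 (largest limma adjusted p = 0.0169).

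Cxcl13, the ligand of CXCR5 that gathers B cells into follicles, lies at chromosome 5, 95956951 to 95961068, on the same chromosome as Cxcl1, Cxcl2, Cxcl9 and Cxcl10. It had 3.24, 5.49, 21.4, 9.14 and 6.82 FPKM in BBBPH livers, 1.3, 1.75, 1.43, 1.48 and 3.63 FPKM in model livers and 2.67, 2.91, 2.33, 2.18 and 3.84 FPKM in control livers. In BBBPH livers 4 of 5 values were above every model liver and 4 of 5 above every control liver, with replicate 3_1 highest and 2_1 lowest. Cxcl13 rose in BBBPH against model livers, 4.8 times the model mean (log2 fold change 1.62 ± 0.33 SE, adjusted p = 0.00204, limma), and in BBBPH against control livers (log2 fold change 1.21 ± 0.33 SE, adjusted p = 0.0139). Without BBBPH 3_1 these differences were 1.28 (adjusted p = 0.00164) and 0.87 (adjusted p = 0.0183). Model and control livers differed by -0.41 (95% interval -1.11 to 0.28, adjusted p = 0.334). Its receptor Cxcr5 had a mean of 0.0864 FPKM. B and plasma cell markers, 8 in the table and 1 tested, gave 0 calls and summed to 3.05 to 9.78 FPKM in BBBPH, 2.51 to 5.41 FPKM in model and 2.58 to 6.55 FPKM in control livers. Kupffer cell markers, 8 of 8 tested, had 4 higher in BBBPH against model livers and 1 higher in BBBPH against control livers, led by the scavenger receptor Marco at 41.3 ± 24.7 FPKM in BBBPH, 17.3 ± 5.78 FPKM in model and 9.5 ± 2.09 FPKM in control livers, and summed to 322 to 505 FPKM in BBBPH, 215 to 362 FPKM in model and 293 to 345 FPKM in control livers. Over all genes tested, 14.2% were higher in BBBPH against model livers and 24.4% in BBBPH against control livers. In model against control livers 8.64% of all genes were lower. The part of these markers in the rise of Cxcl13 was not tested.

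The other ligands of lymphoid and resident cells were not called in any comparison. Ccl21a and Ccl19, ligands of CCR7, had 1.75 to 3.55 FPKM in BBBPH, 1.22 to 2.79 FPKM in model and 1.44 to 3.06 FPKM in control livers for Ccl21a and 0.369 to 1.76 FPKM in BBBPH, 0.184 to 0.765 FPKM in model and 0 to 0.684 FPKM in control livers for Ccl19. Ccl25, the CCR9 ligand, had 0.858 to 1.46 FPKM in BBBPH, 0.664 to 1.32 FPKM in model and 1.02 to 1.26 FPKM in control livers. Ccl27a, the CCR10 ligand, had 1.69 to 3.67 FPKM in BBBPH, 2.52 to 4.84 FPKM in model and 2.3 to 3.77 FPKM in control livers. Ccl21a and Ccl27a have near-identical copies in the mouse genome, of which Ccl21b and Ccl27b are in the table at means of 0.00427 and 0.00402 FPKM, so their reads may be split or lost between copies.

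Cxcl16, a membrane-bound ligand that can be shed and is read by CXCR6, had 6.55 to 10.8 FPKM in BBBPH, 7.55 to 9.63 FPKM in model and 6.18 to 8.92 FPKM in control livers. It rose in model livers (log2 fold change 0.31 ± 0.11 SE, adjusted p = 0.0421, limma), with 4 of 5 above the highest control liver. This call ended without BBBPH 2_2, model 1_4, 2_1, 2_3 or 3_4 or control 1_1, 1_5, 2_1 or 3_4 (adjusted p = 0.0518 to 0.0933), with no filter, on counts and without model 1_4 and BBBPH 2_2, and with median-ratio scaling the difference was 0.17 (0.0509 to 0.2 over these). In BBBPH livers it differed from model livers by -0.03 (95% interval -0.27 to 0.21) and from control livers by 0.28 (adjusted p = 0.0775; called without BBBPH 2_1 or control 2_2, adjusted p = 0.017 to 0.03). Zmynd15 exons on the other strand cover 18.3% of its exonic bases, at 0.302 to 1.01 FPKM in BBBPH, 0.569 to 0.915 FPKM in model and 0.398 to 0.81 FPKM in control livers. Cx3cl1, or fractalkine, the other transmembrane ligand, had 0.195 ± 0.093 FPKM in BBBPH, 0.346 ± 0.104 FPKM in model and 0.164 ± 0.0536 FPKM in control livers (SD, n = 5 each) and rose in model livers (log2 fold change 0.21, adjusted p = 0.0189). The call was lost without control 2_2 (adjusted p = 0.0507) and without model 1_4 and BBBPH 2_2 (0.0504).

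Cxcl14, a ligand made by epithelial and stromal cells, had 0.669, 0.65, 0.393, 0.216 and 0.788 FPKM in BBBPH livers, 1.08, 2.68, 1.63, 1.44 and 0.861 FPKM in model livers and 0.681, 0.767, 0.552, 0.497 and 0.289 FPKM in control livers. Model livers were above all livers of both other groups. Cxcl14 rose in model livers (log2 fold change 0.67 ± 0.16 SE, adjusted p = 0.00435, limma) and fell in BBBPH against model livers (log2 fold change -0.69 ± 0.16 SE, adjusted p = 0.00528), and BBBPH and control means lay close together (0.543 and 0.557 FPKM). Ccl22, a CCR4 ligand of dendritic cells and macrophages, was higher in model than in control livers (log2 fold change 0.37 ± 0.08 SE, adjusted p = 0.00176) and in BBBPH than in control livers (log2 fold change 0.28 ± 0.08 SE, adjusted p = 0.0162), with 0.254 to 0.529 FPKM in BBBPH, 0.212 to 0.593 FPKM in model and 0.0301 to 0.153 FPKM in control livers. Control livers did not overlap with either group. Ccl24, or eotaxin-2, at 1.19 to 3.11 FPKM in BBBPH, 1.15 to 3.58 FPKM in model and 1.68 to 3.12 FPKM in control livers, was not called in any comparison. Neither was the lymphotactin gene Xcl1, at 0.0509 to 0.909 FPKM in BBBPH, 0.0523 to 1.06 FPKM in model and 0.327 to 1.12 FPKM in control livers, nor Ccl8, at 0.0512 to 0.476 FPKM in BBBPH, 0 to 0.563 FPKM in model and 0.0541 to 0.217 FPKM in control livers.

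**Figure D3:**
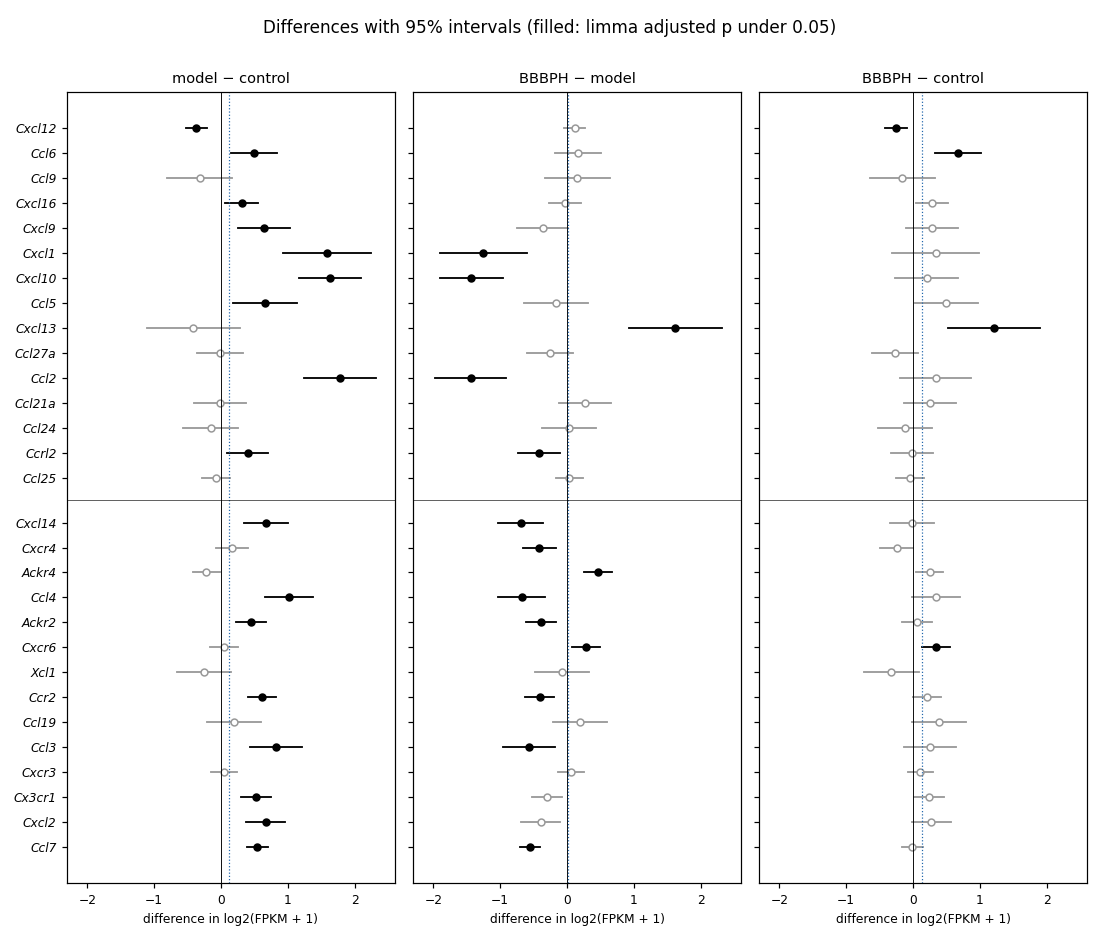
Difference in log2(FPKM + 1) with its 95% interval for 29 genes, in model against control, BBBPH against model and BBBPH against control livers; filled points passed an adjusted p under 0.05 in limma, and the dotted blue line is the median of all 9575 genes. Genes above the horizontal line are from the fit of 9575 genes and those below it from the fit of 12705 genes. Ccl2, Cxcl1 and Cxcl10 lie far to the right in the first panel (1.78, 1.59 and 1.63) and far to the left in the second (-1.44, -1.25 and -1.43), and Cxcl13 lies to the right in the second and in the last (1.62 and 1.21).

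Among the signalling receptors, Ccr2, the receptor of Ccl2 that marks inflammatory monocytes, had 0.266, 0.709, 0.556, 0.329 and 0.534 FPKM in BBBPH livers, 0.487, 1.15, 1.08, 1.15 and 0.98 FPKM in model livers and 0.217, 0.3, 0.281, 0.337 and 0.227 FPKM in control livers. All model livers were above all control livers, and model 1_1 was the lowest of its group, at the level of BBBPH livers. Ccr2 rose in model livers (log2 fold change 0.62 ± 0.10 SE, adjusted p = 0.000364, limma) and fell in BBBPH against model livers (log2 fold change -0.41 ± 0.10 SE, adjusted p = 0.00847). With a pseudocount of 0.1 FPKM these were 1.48 and -0.89. BBBPH and control livers differed by 0.21 (adjusted p = 0.141).

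Cx3cr1, the fractalkine receptor of patrolling monocytes, had 0.162 to 0.54 FPKM in BBBPH, 0.293 to 1.03 FPKM in model and 0.081 to 0.192 FPKM in control livers and rose in model livers (log2 fold change 0.53 ± 0.11 SE, adjusted p = 0.00156, limma). All model livers were above all control livers. Its difference in BBBPH against model livers did not pass (log2 fold change -0.29, adjusted p = 0.056) except without BBBPH 2_2 or model 1_1 or 3_4 (adjusted p = 0.0154 to 0.0322). Cxcr4, the Cxcl12 receptor, had 0.182, 0.526, 0.771, 0.55 and 0.342 FPKM in BBBPH livers, 0.845, 1.14, 0.973, 1.07 and 0.728 FPKM in model livers and 0.443, 1.2, 0.749, 0.713 and 0.639 FPKM in control livers. BBBPH livers were lower than model livers (log2 fold change -0.41 ± 0.11 SE, adjusted p = 0.0172), with 4 of 5 below the lowest model liver, and the call ended without model 1_4 and BBBPH 2_2 (adjusted p = 0.0568). Cxcr6, the Cxcl16 receptor of resident T and natural killer T cells, had 1.05, 0.7, 0.969, 0.78 and 0.947 FPKM in BBBPH livers, 0.359, 0.344, 0.603, 0.463 and 1.03 FPKM in model livers and 0.468, 0.389, 0.423, 0.613 and 0.567 FPKM in control livers. All BBBPH livers were above all control livers (log2 fold change 0.34 ± 0.10 SE, adjusted p = 0.0222), and that call ended without control 1_5 (adjusted p = 0.0509). Against model livers Cxcr6 rose too (log2 fold change 0.29, adjusted p = 0.044). The call was lost without any of 12 single libraries (every BBBPH library but 2_2, every model library but 3_4, every control library but 3_4) at adjusted p = 0.0506 to 0.109.

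Ccr7, which brings dendritic cells and naive T cells to lymph nodes, had 0.147 to 0.301 FPKM in BBBPH, 0.279 to 0.494 FPKM in model and 0.028 to 0.218 FPKM in control livers and rose in model livers (log2 fold change 0.26, adjusted p = 0.00323, limma). Ccr1, a receptor of monocytes and neutrophils, had 0.0185 to 0.152 FPKM in BBBPH, 0.102 to 1.03 FPKM in model and 0.0191 to 0.088 FPKM in control livers. It was called higher in model livers (log2 fold change 0.33, adjusted p = 0.0488), but its 1.03 FPKM in model 1_4 was above the other model livers, at 0.102 to 0.329 FPKM, and without that library the difference was 0.17 (adjusted p = 0.0284). The call ended without any BBBPH library, model 2_1 or 2_3 or any control library (adjusted p = 0.0549 to 0.0911). Of 9 dendritic cell markers, which include Xcr1 and Ccr9, 0 reached the level tested, and they summed to 1.96 to 3.26 FPKM in BBBPH, 2.77 to 5.23 FPKM in model and 1.63 to 2.41 FPKM in control livers.

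**Figure D4:**
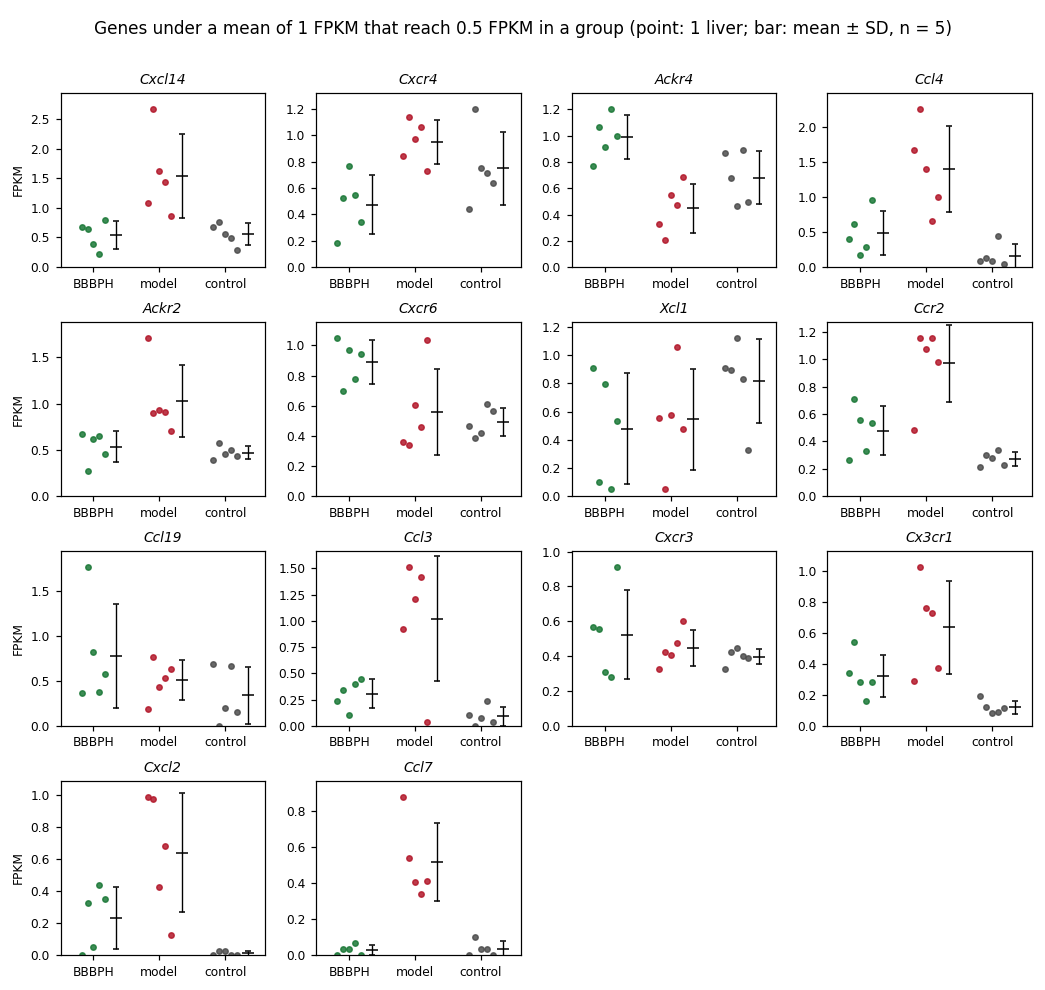
FPKM in each liver for the 14 genes under a mean of 1 FPKM that reached 0.5 FPKM in a group, with BBBPH, model and control livers from left to right; points are single livers and bars the mean ± SD (n = 5). Ccl4, Ccl7, Cxcl14, Ccr2 and Ackr2 are high in model livers (Cxcl14 at 0.861 to 2.68 FPKM, against 0.216 to 0.788 FPKM in BBBPH and 0.289 to 0.767 FPKM in control livers), while Ackr4 and Cxcr6 are high in BBBPH livers.

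The atypical receptors divided by direction. Ackr2, or D6, a scavenger that takes up inflammatory CC chemokines, had 0.668, 0.273, 0.621, 0.648 and 0.461 FPKM in BBBPH livers, 1.71, 0.898, 0.925, 0.907 and 0.704 FPKM in model livers and 0.393, 0.576, 0.453, 0.502 and 0.436 FPKM in control livers. Model livers were above all livers of both other groups, with model 1_1 far above the rest. Ackr2 rose in model livers (log2 fold change 0.44 ± 0.11 SE, adjusted p = 0.00497, limma) and fell in BBBPH against model livers (log2 fold change -0.39 ± 0.11 SE, adjusted p = 0.0152), where the call ended without model 1_4 and BBBPH 2_2 (adjusted p = 0.0505). Ccrl2, which binds chemerin, had 0.935, 0.54, 1.12, 1.37 and 0.85 FPKM in BBBPH livers, 2.49, 2.03, 1.44, 1.38 and 0.928 FPKM in model livers and 0.86, 1.08, 1.19, 0.681 and 1.1 FPKM in control livers. The groups overlapped. Its rise in model livers (log2 fold change 0.40 ± 0.15 SE, adjusted p = 0.0428) ended without BBBPH 3_4, model 1_1, 1_4, 2_1 or 2_3 or control 1_1, 1_5, 2_2 or 3_4 (adjusted p = 0.0503 to 0.11). Its fall in BBBPH against model livers (log2 fold change -0.42 ± 0.15 SE, adjusted p = 0.0461) ended without every single library but BBBPH 3_2, model 3_4 and control 2_2 (0.0512 to 0.122). Both calls were also lost with a pseudocount of 0.1 FPKM, which gave differences of 0.65 and -0.70 (adjusted p = 0.0527 and 0.0513), with no filter, on counts and without model 1_4 and BBBPH 2_2. The rise was lost with median-ratio scaling too, and the fall in a fit of these groups alone. Over these settings the adjusted p was 0.0527 to 0.113 for the rise and 0.0513 to 0.219 for the fall.

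Ackr4, a scavenger of CCL19, CCL21 and CCL25, had 0.766, 1.07, 0.912, 1.21 and 0.998 FPKM in BBBPH livers, 0.325, 0.209, 0.547, 0.471 and 0.686 FPKM in model livers and 0.872, 0.678, 0.465, 0.889 and 0.497 FPKM in control livers. All BBBPH livers were above all model livers, and control livers overlapped with both. Ackr4 rose in BBBPH against model livers (log2 fold change 0.46 ± 0.10 SE, adjusted p = 0.00319, limma), and with a pseudocount of 0.1 FPKM the difference was 1.05. In model against control livers it did not pass (log2 fold change -0.22, adjusted p = 0.0988) except without model 3_4 (adjusted p = 0.0421). Exons of Acad11 on the other strand cover 8.9% of the exonic bases of Ackr4. Acad11 stood at 176 ± 4.37 FPKM in BBBPH, 174 ± 18.9 FPKM in model and 171 ± 11.1 FPKM in control livers. How reads in the shared bases were counted is not stated, and the part of Acad11 in the Ackr4 values was not tested. Ackr3, which scavenges CXCL12, had 0.173 to 0.599 FPKM in BBBPH, 0.179 to 0.446 FPKM in model and 0.0925 to 0.474 FPKM in control livers and was not called in any comparison.

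Other genes of the pathway were read from lists, by count and median only, beside the 9575 genes tested. Of those, 29.9% were higher and 8.64% lower in model against control livers (median 0.12), and 14.2% were higher and 12.2% lower in BBBPH against model livers (median 0.02). Of 9 tested chemotactic genes outside the symbol pattern (13 listed), 4 rose and 1 fell in model livers. The formyl peptide receptor Fpr2 rose (log2 fold change 0.70, adjusted p = 0.00546, limma) and Mif, which can signal through CXCR2 and CXCR4, fell. Mif had 217 ± 25 FPKM in BBBPH, 143 ± 15 FPKM in model and 187 ± 19.4 FPKM in control livers, and it rose in BBBPH against model livers (log2 fold change 0.59, adjusted p = 0.000483). Model livers were thus the lowest of the groups for Mif. Of 32 tested genes that signal below the receptors (42 listed), 15 rose and 1 fell in model livers, with a median of 0.23 against 0.12 over all genes, and 0 rose and 2 fell in BBBPH against model livers. Rhoa, the small GTPase of cell contraction, had 83.9 ± 3.47 FPKM in BBBPH, 97.8 ± 4.42 FPKM in model and 79.9 ± 4.05 FPKM in control livers, and it passed in both comparisons (adjusted p = 0.00121 and 0.0107, limma). In BBBPH against control livers 7 of the 32 were higher and 1 was lower (median 0.16, against 0.13 over all genes), where 24.4% of all genes were higher and 3.7% lower. Plcb3, a phospholipase, was among the 7 (log2 fold change 0.33, adjusted p = 0.00871), and the lower gene was Rgs1, which turns chemokine signals off (log2 fold change -1.08, adjusted p = 0.00339).

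Of 19 tested NF-kB genes (23 listed), 10 rose and 0 fell in model livers (median 0.21), and 2 rose and 6 fell in BBBPH against model livers (median -0.09, against 0.02 over all genes). Nfkb1, which encodes the p50 subunit, had 6.89 ± 0.463 FPKM in BBBPH, 8.2 ± 0.847 FPKM in model and 5.72 ± 0.356 FPKM in control livers and passed in both comparisons (adjusted p = 0.000208 and 0.0299, limma). Of 13 tested genes of IRF factors and interferon signalling (15 listed), 7 rose and 0 fell in model livers (median 0.36), and 0 rose and 4 fell in BBBPH against model livers (median -0.18). Irf9, an interferon-activated factor, had 9.48 ± 1.37 FPKM in BBBPH, 14.3 ± 1.52 FPKM in model and 8.98 ± 1.42 FPKM in control livers. It rose in model livers and fell in BBBPH against model livers (adjusted p = 0.000465 and 0.00159, limma). Irf1 was higher in BBBPH than in control livers (log2 fold change 0.41, adjusted p = 0.00846).

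Of 19 tested cytokine and sensor genes upstream (26 listed), 6 rose and 0 fell in model livers (median 0.24), and 1 rose and 3 fell in BBBPH against model livers (median -0.04). The 6 that rose and the 3 that fell are shares near those over all genes. Ticam1, the adaptor of TLR3 and TLR4 signalling to interferon genes, had 4.33 ± 0.0675 FPKM in BBBPH, 7.77 ± 1.61 FPKM in model and 3.3 ± 0.573 FPKM in control livers. It rose in model livers and fell in BBBPH livers (adjusted p = 1.32e-05 and 0.000349, limma). Il1rn, the interleukin-1 receptor antagonist, had 2.44 ± 0.188 FPKM in BBBPH, 5.88 ± 3.5 FPKM in model and 0.757 ± 0.215 FPKM in control livers and did the same (adjusted p = 4.56e-05 and 0.013). Of 10 tested leukocyte adhesion genes (18 listed), 7 rose and 0 fell in model livers (median 0.42, where 29.9% of all genes were higher), and 0 rose and 3 fell in BBBPH against model livers (median -0.16, where 12.2% were lower). Jam2, an endothelial junction protein, rose in model livers (log2 fold change 0.52, adjusted p = 0.000128), and Cd44 and Selplg fell in BBBPH against model livers (-0.38 and -0.35, adjusted p = 0.0155 and 0.0276).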

How the data were processed

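Liver RNA from 15 mice was sequenced. The authors deposited FPKM values per gene for every library, made with fastp, HISAT2, HTSeq and DESeq2 on mm10, per the submitters' processing notes; no versions, annotation or strand setting are given in the sources used here. FPKM was read from the table of all libraries.

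Tests used limma 3.58.1 (R 4.3.3, statmod 1.5.0) with an intensity trend on log2(FPKM + 1), 3 group means over 15 libraries, 9575 genes averaging 1 FPKM or more, and Benjamini-Hochberg adjustment over all of them, called under 0.05. Genes of 0.1 to 1 FPKM came from the same fit over 12705 genes. The added 1 FPKM understates the changes of low genes. Fragment counts and depth (35395712 to 39624160 fragments) were recovered from the steps of the FPKM values. Counts were kept only for the 15713 genes whose values all came out whole within 0.02, so their wholeness is no separate check. These counts were tested with voom as an added alternative. Depth limits the lowest genes: no fold is given where a group lies at or under 3 fragments. Figures were drawn with matplotlib 3.10.9, and tables made in Python 3.11.15 (pandas 2.3.3, numpy 2.4.6, scipy 1.17.1). The fits were tested on simulated data. Positions are from GENCODE M21 and promoters from RefSeq, both on GRCm38.

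Genes matching the symbol pattern and averaging 1 FPKM or more, or 0.5 FPKM in a group, are named with values, and others when called; Zmynd15, Art3, Acad11 and Saa1 were added after their values were seen. Single values of some genes are not reported here, although they enter the totals. The members and lists were chosen with earlier results of these data known. Alternatives changed the pseudocount, filter, scaling, unit (TPM), trend, fit, replicate block and libraries.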

Additional observations from a re-analysis of the deposited data

Results flagged for a closer look

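In 7 of 87 groups of 5 livers, 1 value lay farther from the others than Dixon's 95% limit allows, and chance gives about 1 in 20. Ackr2 was 1.71 FPKM in model 1_1, against 0.704 to 0.925 FPKM in the other model livers. Ccr2 was 0.487 FPKM in model 1_1 (others 0.98 to 1.15 FPKM) and Cxcl16 was 7.55 FPKM there (others 9.08 to 9.63 FPKM). Ccl27a was 4.84 FPKM in model 2_1, where the other model livers had 2.52 to 3.16 FPKM. Cxcl13 was 3.63 FPKM in model 3_4, where the others had 1.30 to 1.75 FPKM. Among control livers, Cxcl1 was 7.23 FPKM in control 2_1 (others 2.03 to 2.48 FPKM) and Ccl4 was 0.449 FPKM in control 2_2 (others 0.0428 to 0.124 FPKM). Model 1_1 accounts for 3 of the 7.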

How the results depend on the processing

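In model against control livers the 9 calls among 16 genes became 17 of 57 with no filter (3267 of all 17051 genes were higher and 849 lower), 21 of the 38 members of at least 0.1 FPKM (3392 and 916 of 12705; also 21 of 38 with a pseudocount of 0.1), 5 of 16 with median-ratio scaling, 5 without model 1_4 and BBBPH 2_2, and 2 with the replicate block. Leaving out 1 library gave 5 to 9 (5 without model 1_4, model 2_3 or control 1_1). With the replicate block, Ccl2 and Cxcl10 kept their calls here. In BBBPH against model livers the 5 of 16 became 11 of 57 with no filter (1373 and 1324 of all 17051), 14 of 38 at 0.1 FPKM (1517 and 1371 of 12705; 13 of 38 with a pseudocount of 0.1), 2 of 8 at 5 FPKM and 2 with the replicate block, and leaving out 1 library gave 4 to 6. Of the 5, only Cxcl13 kept its call with the replicate block. Ccl2, Cxcl1, Cxcl10 and Ccrl2 lost theirs, and the other call was of a gene outside the 5. Over all 9575 genes that block left 101 higher and 204 lower, in place of 1364 and 1169. Only 10 of the 15 libraries share their number with a library of another group, so fewer livers are compared there. In BBBPH against control livers the 4 of 16 became 2 of 8 at 5 FPKM, 7 of 38 at 0.1 FPKM with a pseudocount of 0.1, 0 with the replicate block, and 2 with the first digit of the replicate number as a block, and leaving out 1 library gave 2 to 5 (2 without control 1_5). Replicate numbers did not pair the samples: residual correlations of 8 pairs were -0.33 to 0.024, and 0 of 10 libraries correlated best with their own number.

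Median-ratio scaling moved the median of all genes in model against control from 0.117 to -0.012, and the split of calls in BBBPH against control to 667 higher and 944 lower, in place of 2337 and 354. Uncalled estimates that changed sign were Ccl5 in BBBPH against model livers (0.0071 with the replicate block, 0.0090 without BBBPH 3_2; -0.36 to 0.01 over single libraries left out) and Cxcl16 there (0.059 without BBBPH 2_1; -0.10 to 0.06). The cause was not tested. Of 1417 recomputed values 1256 kept direction and side of the threshold, 143 lost and 15 gained the call, and 3 changed sign, none of them a call. Depth limits the genes on few fragments most.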
